A study of Mus musculus with 912 samples.

Results

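The genes described here are 10 members of one protein family of chromatin regulators, the proteins with a Jumonji C (JmjC) domain: Kdm6b, Kdm7a, Jmjd1c, Kdm3a, Kdm2a, Kdm2b, Kdm4a, Kdm4b, Kdm4c and Jarid2. They were taken by name from the 42802 genes of the deposited tables, with earlier results of these data known. The paper that reported the data names Kdm6b, Kdm7a and Jmjd1c in its early activity signature of dentate granule neurons. The study sorted single nuclei from the hippocampus of female C57BL6 mice aged 7.75 to 9 weeks by antibody staining and sequenced each with SmartSeq2, a plate method that reads whole transcripts. It asked how neurons that had just been active differ in RNA from their inactive neighbours, and how long that difference lasts. Activity was read from staining for the immediate early proteins FOS and, in the later groups, ARC.

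Home-cage (HC) mice had no exposure and gave FOS- nuclei. Mice of the 1 h group spent 15 min in an unfamiliar environment and gave FOS+ and FOS- nuclei 1 h after return to the home cage. The labels divide the HC and 1 h nuclei into dentate gyrus granule neurons (DG), pyramidal neurons of CA1 and CA3, subiculum (Sub), and VIP, Pvalb, Ivy and Th types. The later groups are DG nuclei that all stained for ARC. Those of the 4 h and 5 h groups were FOS- and had seen only context A. In the A>A and A>C groups the mice were put back into context A or into a different context C before collection, and FOS+ and FOS- nuclei were taken. All mice were wild type, so no allele or transgene separates the groups. After filtering, 783 of 912 nuclei were used, 558 of them DG. They came from 29 mice as counted by exposure and mouse number. Both 1 h DG groups come from 1 animal, mouse 3, so every test of those groups borrows its spread from the rest of the DG animals. The A>C FOS+ and FOS- nuclei come from different mice on different plates, and there plate and FOS cannot be told apart. The HC animals used in DG comparisons were on 1 plate date that no other DG group shares. In DG comparisons against HC, plate and exposure thus cannot be told apart.

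JmjC demethylases remove methyl groups from histone lysines, with iron and alpha-ketoglutarate as cofactors. Methylation of lysine K27 on histone H3, laid down by the Polycomb repressive complex PRC2, and methylation of K9 both go with silenced chromatin, so enzymes that erase them are studied as switches for genes that neurons turn on with activity. Kdm6b (also JMJD3) acts on trimethylated K27 and is known as an inducible gene in many cell types. Jarid2 carries a JmjC domain but no demethylase activity and is a cofactor of PRC2.

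In the GRCm38 annotation all 10 are protein-coding genes. Kdm6b lies at chr11:69398508-69413675 on the minus strand, Kdm7a at chr6:39136623-39206789 (minus), Jmjd1c at chr10:67096125-67256326 (plus) and Jarid2 at chr13:44729474-44921643 (plus). Kdm2a lies at chr19:4314419-4398285 (minus), Kdm2b at chr5:122870665-122989823 (minus) and Kdm3a at chr6:71588972-71632990 (minus). Kdm4a is at chr4:118136957-118180043 (minus), Kdm4b at chr17:56326062-56402870 (plus) and Kdm4c at chr4:74242497-74405860 (plus). SmartSeq2 reads carry no strand, so reads from the stretch that Kdm6b shares with its antisense gene Kdm6bos (1188 bases) cannot be assigned to one or the other. The same holds for the 821 bases that Jmjd1c shares with Reep3 and the 11690 bases that Kdm7a shares with 4930599N23Rik.

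The start regions of Kdm7a, Jmjd1c and Jarid2 are shown because transcription of these genes begins there. RefSeq windows (GRCm38.p6, from 250 bases before to 50 after a start, written 5′ to 3′ along the gene) matched 7 of the 10 genes, in 15 windows; Kdm6b, Kdm2a and Kdm4b had no entry. They were searched on both strands for the cAMP response element TGACGTCA, its core TGACG (which the full element contains), the AP-1 site TGAGTCA bound by FOS and JUN proteins, and the EGR sites GCGTGGGCG and GCGGGGGCG. Capitals mark a match on either strand. The windows are Kdm7a at chr6:39206724-39207023 (minus), Jmjd1c at chr10:67126838-67127137 and chr10:67185500-67185799 (both plus) and Jarid2 at chr13:44731021-44731320 (plus).
Kdm7a: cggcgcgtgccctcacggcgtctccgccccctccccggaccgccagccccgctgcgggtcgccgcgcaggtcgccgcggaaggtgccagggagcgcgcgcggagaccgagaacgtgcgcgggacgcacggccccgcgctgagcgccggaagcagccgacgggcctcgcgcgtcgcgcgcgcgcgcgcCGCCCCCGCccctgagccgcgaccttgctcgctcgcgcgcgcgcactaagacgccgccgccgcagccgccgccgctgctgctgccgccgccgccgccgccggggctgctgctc
Jmjd1c, upstream start: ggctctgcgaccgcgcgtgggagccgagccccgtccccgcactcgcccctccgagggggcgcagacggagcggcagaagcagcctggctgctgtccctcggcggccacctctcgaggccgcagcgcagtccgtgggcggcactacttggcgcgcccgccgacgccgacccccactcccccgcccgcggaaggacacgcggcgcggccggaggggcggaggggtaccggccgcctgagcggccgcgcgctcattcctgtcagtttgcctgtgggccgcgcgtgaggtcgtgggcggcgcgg
Jmjd1c, inner start: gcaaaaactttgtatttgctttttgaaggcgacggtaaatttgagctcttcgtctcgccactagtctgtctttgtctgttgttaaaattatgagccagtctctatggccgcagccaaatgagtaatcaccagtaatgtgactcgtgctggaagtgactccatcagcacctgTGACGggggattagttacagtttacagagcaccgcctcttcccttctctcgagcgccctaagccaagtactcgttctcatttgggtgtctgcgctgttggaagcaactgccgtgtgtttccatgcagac
Jarid2: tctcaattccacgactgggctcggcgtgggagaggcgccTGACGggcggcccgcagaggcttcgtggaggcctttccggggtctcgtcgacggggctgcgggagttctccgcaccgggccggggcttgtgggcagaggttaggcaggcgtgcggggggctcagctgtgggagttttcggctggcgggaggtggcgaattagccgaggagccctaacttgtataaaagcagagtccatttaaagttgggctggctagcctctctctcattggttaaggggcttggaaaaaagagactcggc

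The Kdm7a window holds the EGR site of G bases, first base at -63 from the start, and 82.7% of its bases are G or C. The inner Jmjd1c window holds the TGACG core at -79 and is 48.3% G or C, while the upstream one is 78.0% G or C and holds none of the letters searched. The Jarid2 window has the core at -211, and a second Jarid2 window at chr13:44730524-44730823, not printed, holds none of the letters searched and is 64.3% G or C. Over the 15 member windows the core was found in 6 (4 genes), against 20.8% of all 32851 windows. The Kdm2b windows that begin at chr5:122900301 and chr5:122900318 overlap and hold the same site, which is counted in both. The AP-1 letters were found in 3 member windows (Kdm3a and Kdm4a), against 5.2% of all, and the EGR site GCGGGGGCG in 2 (Kdm3a and Kdm7a), against 2.91%. Neither TGACGTCA (1.79% of all windows) nor GCGTGGGCG (0.612%) was found in a member window.

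The deposited values are counts and log2(TPM+1), a level corrected for transcript length and depth. Levels below are means of log2(TPM+1) over the nuclei of an animal with at least 2 nuclei in the group, given as mean ± SD over animals. Folds and adjusted p-values come from edgeR's quasi-likelihood test on counts summed per animal and group, adjusted over all genes tested. All 10 members passed its filter on low counts in every fit. Nuclei held between 142275 and 5885216 counts (median 1251690), and the 5 h nuclei were the shallowest DG group (median 426841, against 979780 in HC and 1667494.5 in A>A FOS+). Of the DG markers, Prox1 had counts in 538, C1ql2 in 394 and Dsp in 93 of 558 DG nuclei, but Prox1 also in 51 of 66 VIP nuclei. Of the VIP markers, Vip had counts in 60, Cck in 59 and Calb2 in 31 of 66 VIP nuclei. Cck also had counts in 98.6% of CA1 and 85.3% of DG nuclei, so it does not mark VIP nuclei alone. Vip had counts in 4 DG nuclei, 8 of 12 Ivy and 7 of 7 Th nuclei. Of the CA1 markers, Mpped1 had counts in 59, Fibcd1 in 47 and Wfs1 in 45 of 73 CA1 nuclei, and Mpped1 was as frequent in Sub (81.8%) and Pvalb nuclei (87.5%), so it does not mark CA1 alone. The GABAergic genes Gad1 and Gad2 had counts in 66.3% and 49.6% of DG nuclei, and Slc32a1, the transporter that loads GABA into vesicles, in 4 of 558. Arc gives no check of the HC and 1 h labels, since FOS- nuclei high in Arc were removed there. Fos RNA was not found in every FOS-stained nucleus: it was detected in 73.1% of 1 h FOS+ and 33.1% of A>A FOS+ DG nuclei.

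Without exposure the members spanned a wide range of levels in DG nuclei. Jmjd1c was the highest (5.44 ± 0.38, n = 2 animals), followed by Kdm2a (3.26), Kdm4c (3.22) and Kdm7a (2.13). Kdm6b stood at 1.05 ± 0.52, and Kdm4a, Jarid2, Kdm4b, Kdm3a and Kdm2b followed between 0.98 and 0.58. Kdm2a and Kdm4c, and likewise the 6 lowest genes, differed from their neighbours in this order by less than their spread. A nucleus had counts for a median of 5 of the 10 genes in HC DG and 7 in HC CA1.

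In HC mice 5 of the 10 members had both DG animals below all CA1 animals in level (Jarid2, Kdm2b, Kdm3a, Kdm4b and Kdm7a), as had 16.8% of 14734 genes. Over all genes limma on this scale had a median difference of -0.28, with 35.8% of genes positive, and on summed counts Kdm7a went the other way (log2 fold change 0.55). Jarid2 was 0.79 and 0.97 in the DG animals against 2.16, 2.79 and 6.15 in the CA1 animals. Kdm3a was 0.24 and 1.05 in DG against 1.45, 2.51 and 3.37 in CA1. In edgeR none of the 10 was called in DG against CA1 (log2 fold change of Jarid2 -2.77, SE 1.30, adjusted p = 0.737), where 0.00642% of 15582 genes were called. VIP against CA1 called no gene at all (0%), with Jarid2 at -3.80 (SE 1.38, edgeR adjusted p = 0.704), and VIP against DG called 0.0321% of genes and no member. At an unadjusted p under 0.05, 1, 1 and 0 members passed in these comparisons, where 6.33%, 6.78% and 7.45% of all genes did. DESeq2 called 1 member, Jarid2, in VIP against CA1 and 0 in the other two, and 3.96%, 3.71% and 4.89% of genes in VIP against CA1, DG against CA1 and VIP against DG.

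**Figure D1:**
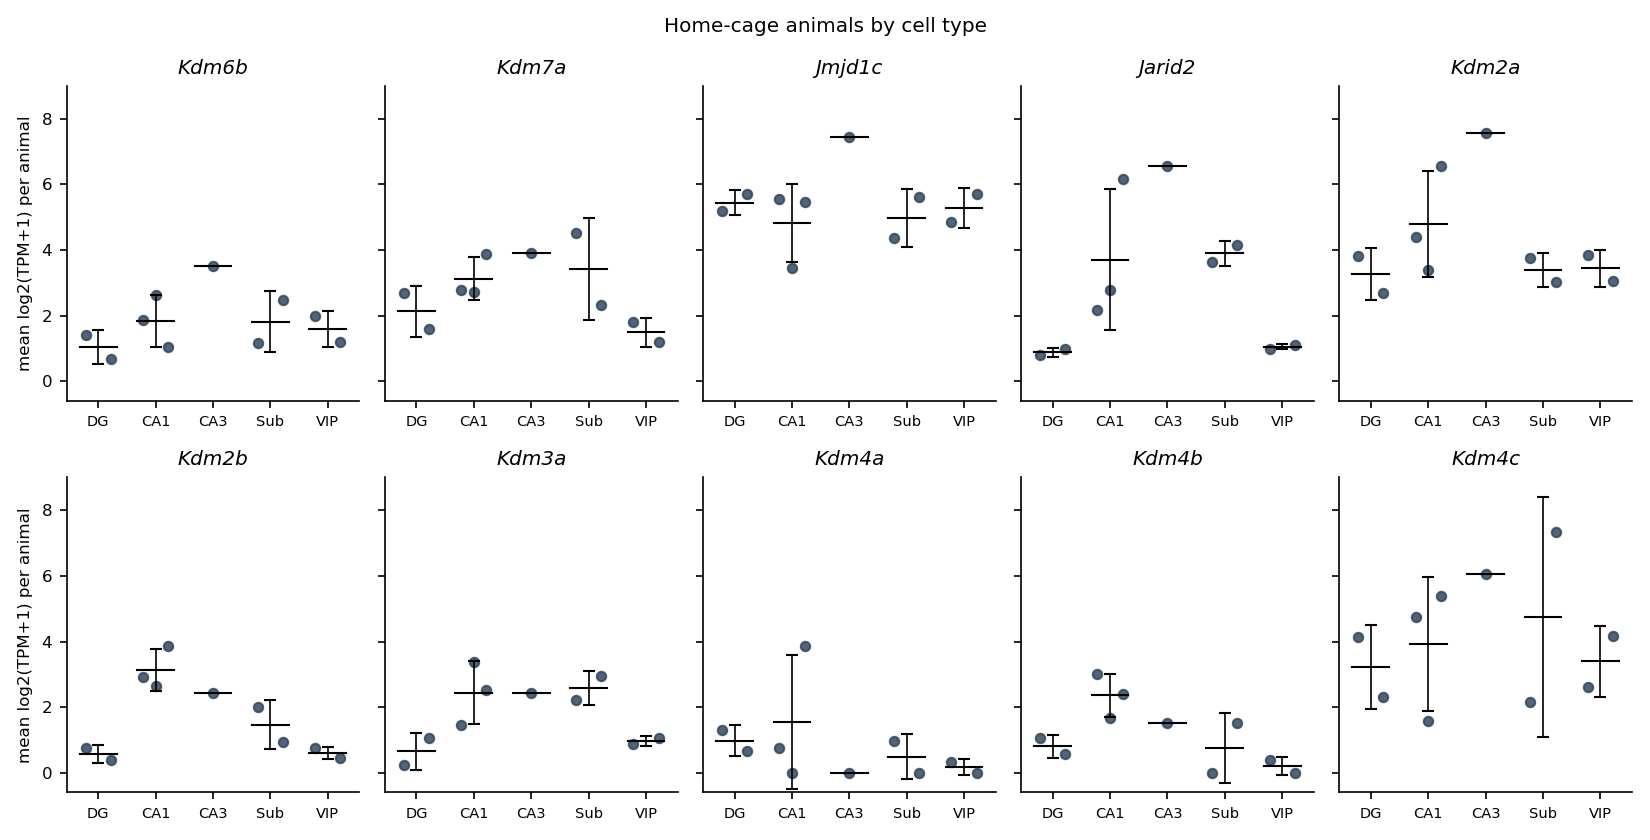
Mean log2(TPM+1) per animal (points) of each gene in HC nuclei by cell type, with the mean (line) and SD over animals (bars). Jmjd1c is the highest gene in DG, and Jarid2 and Kdm3a lie lower in the DG than in the CA1 animals.

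In the rarer types of HC mice only 1 animal gave enough nuclei, so the values have no replicate check. CA3 (HC mouse 8) had Jarid2 at 6.56, Jmjd1c at 7.44 and Kdm6b at 3.51. Th nuclei (HC mouse 5) had Jarid2 at 4.88 and Jmjd1c at 7.82, whereas Pvalb nuclei (HC mouse 4) had Jarid2 listed at 0 and Jmjd1c at 5.77. Sub nuclei, from 2 animals, had Jarid2 at 3.64 and 4.16 and Kdm6b at 1.15 and 2.48. No Ivy group of HC had an animal with 2 nuclei.

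Kdm6b, the H3K27 demethylase, was the member called in the most comparisons, and both calls put FOS+ DG nuclei higher, once against HC and once against the FOS- nuclei of A>A. Its level was 6.82 in the FOS+ nuclei of 1 h mouse 3, 2.15 in the FOS- nuclei of the same mouse, and 1.42 and 0.68 in the HC animals. The FOS+ value stood above all of these, the HC animals being from another plate date. In edgeR Kdm6b was higher in 1 h FOS+ than in HC nuclei by 5.31 on the log2 scale (SE 1.05, adjusted p = 0.0292). That comparison called 0.27% of 24405 genes and 2 members, Kdm6b and Jmjd1c, both up. At an unadjusted p under 0.05, 4 members and 5.9% of genes passed. DESeq2 called 3 members, Kdm4a lower besides these, and 6.77% of genes, and limma called 2 on either scale and 2.37% and 1.37% of genes. The Kdm6b call was lost without HC mouse 6 (6.26, edgeR adjusted p = 0.0538) and without HC mouse 7 (4.75, adjusted p = 0.416), and the Jmjd1c call without HC mouse 7.

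Against the FOS- nuclei of the same mouse, Kdm6b was 3.78 higher (SE 1.31), which edgeR did not call (adjusted p = 1). This comparison called 0.0451% of genes and no member. There 4 members passed an unadjusted p under 0.05, as did 3.02% of genes. DESeq2 called 3 (Kdm6b, Jmjd1c and Kdm4a) and 3.91% of genes, and limma on mean log2(TPM+1) called 1 (Kdm6b) and 1.37%. FOS- nuclei of the 1 h mouse against HC called 0.0041% of genes and no member, with none at an unadjusted p under 0.05 (2.8% of genes) and none by DESeq2 (2.39%) or limma, and Kdm6b 1.53 higher (SE 0.98, edgeR adjusted p = 1).

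Every FOS+ DG nucleus had at least 1 Kdm6b count, at 1 h (26 of 26) and after a second exposure (130 of 130 in A>A and 48 of 48 in A>C). Among FOS- nuclei the share was 52.0% in HC (13 of 25), 77.8% at 1 h (21 of 27), 63.6% in A>A (82 of 129) and 60.9% in A>C (28 of 46). With each nucleus thinned in 1 random draw to 100000 counts the shares were 100%, 96.9% and 100% in the 1 h, A>A and A>C FOS+ nuclei, against 28.0% in HC and 41.9% in A>A FOS-. The exact 95% interval of the 63.6% runs from 54.6% to 71.9%, and that of 130 of 130 starts at 97.2%. These intervals cover counting error only. Over the A>A nuclei the quartiles of the Kdm6b level were 5.17, 6.13 and 6.82 in FOS+, against 0, 0.33 and 3.36 in FOS-.

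**Figure D2:**
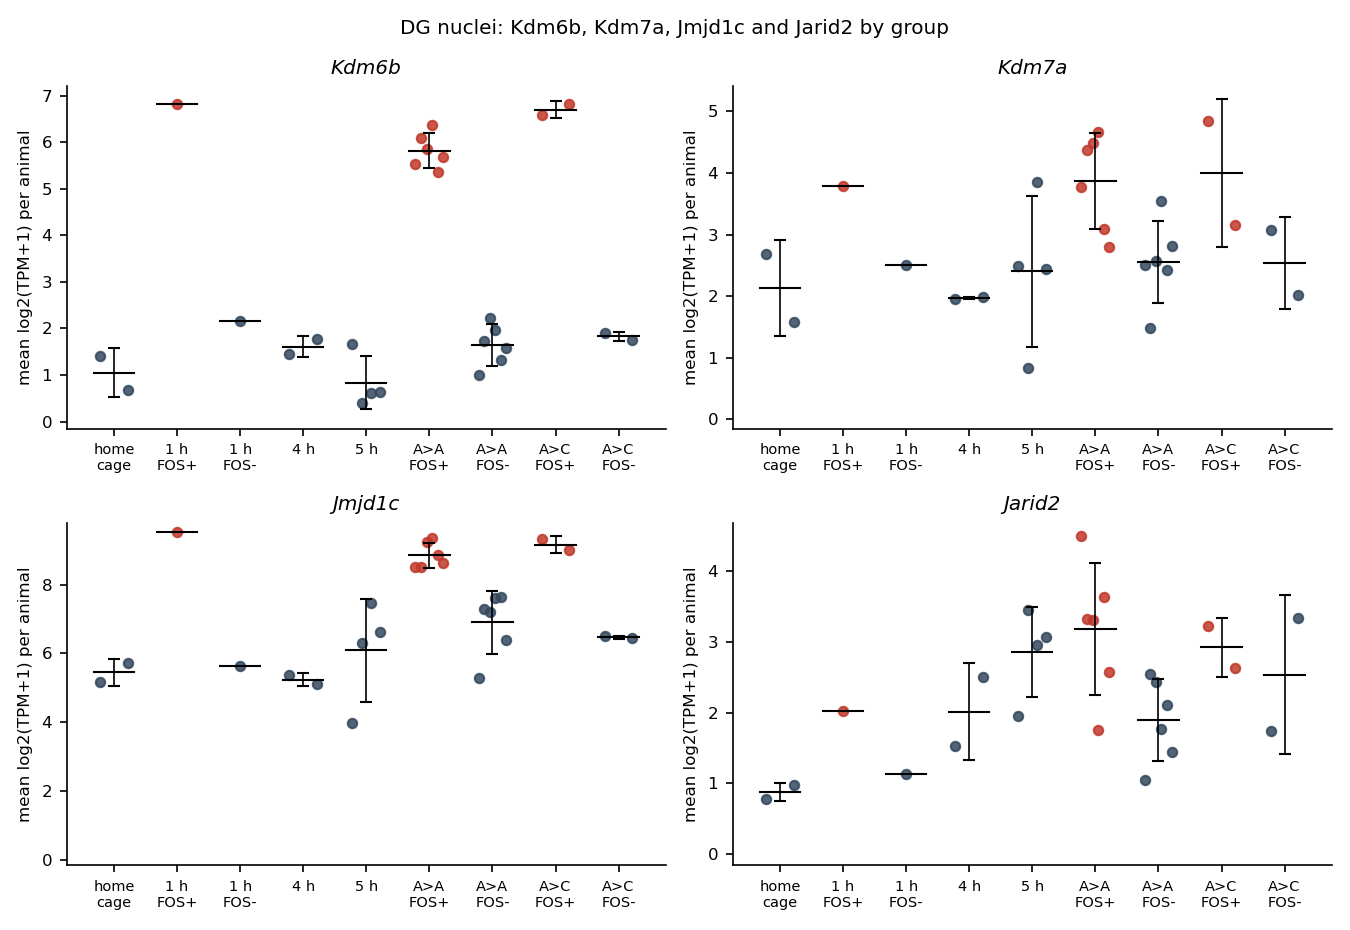
Mean log2(TPM+1) per animal of Kdm6b, Kdm7a, Jmjd1c and Jarid2 in the 9 DG groups (red, FOS+; blue, FOS-), with the mean (line) and SD over animals (bars) where there is more than 1 animal. Kdm6b lies above 5 in each FOS+ animal and below 2.5 in each FOS- animal.

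At the later times Kdm6b was low. It was 1.45 and 1.77 in the 4 h animals and 1.66, 0.39, 0.62 and 0.64 in 5 h mice 22, 23, 8 and 9. All 6 values lay far below the 1 h FOS+ value of 6.82, from another mouse and plate, and the 5 h animals overlapped HC. The 4 h nuclei were 4.33 lower than 1 h FOS+ nuclei on the log2 scale (log2 fold change -4.33, SE 1.02), which edgeR did not call (adjusted p = 0.443). Of all genes 0.0164% were called there and of the members none, 3 at an unadjusted p under 0.05 (3.31% of genes), 3 by DESeq2 (Kdm6b, Jmjd1c and Kdm4a, with 4.76% of genes) and 1 and 2 by limma on the 2 scales (0.413% and 0.744%). Kdm6b was the member limma called on both scales. Against HC, Kdm6b differed by 0.98 (SE 0.84, edgeR adjusted p = 0.91) at 4 h and by 0.26 (SE 0.73, adjusted p = 1) at 5 h. The highest 5 h animal, mouse 22, was also the 5 h animal with the most Fos RNA (mean 2.75), and their relation was not tested.

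Kdm6b was also high in the FOS+ nuclei taken after a second exposure. The paper treats these nuclei as a mixture of newly activated and reactivated neurons, most of those in A>C being newly activated. It reports fewer immediate early genes, at lower levels, in the reactivated ones, and names Kdm6b as raised in either kind. The kinds were not separated here. In A>A Kdm6b ran from 5.35 to 6.38 over 6 FOS+ animals (median 5.77). Over 6 FOS- animals it ran from 0.99 to 2.23 (median 1.66). No FOS+ animal overlapped a FOS- animal. It was 3.47 higher in FOS+ on the log2 scale (SE 0.53, edgeR adjusted p = 0.0181), the only member among the 0.041% of genes called. In the 4 animals that gave both kinds of nuclei, the FOS+ minus FOS- difference in mean log2(TPM+1) was 3.63, 4.41, 4.03 and 4.10. It was positive in 4 of 4 animals, where the smallest two-sided p of an exact sign-flip permutation test is 0.125.

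Plate dates split the A>A animals, and 2 of them hold both FOS+ and FOS- animals. On these the mean Kdm6b level was 6.12 in FOS+ against 2.10 in FOS- animals on one and 5.52 against 1.46 on the other. The other animals stood at 5.80 (FOS+) and 1.36 (FOS-), on plates with no counterpart. With the animals of the shared plate dates alone the log2 fold change was 3.54 and the call was lost (edgeR adjusted p = 0.303). With the animal as replicate block the log2 fold change was 3.55 (edgeR adjusted p = 0.175), and no gene of the series was called. The call was also lost without mouse 24, 25, 26 or 27 (3.42 to 3.51, adjusted p 0.0666 to 0.104), each of which removes a FOS+ and a FOS- sum. DESeq2 and limma on either scale called Kdm6b. They called 2, 1 and 2 members and 3.44%, 1.02% and 0.283% of all genes (limma on mean log2(TPM+1) before log2(mean TPM+1)), and 3 members passed an unadjusted p under 0.05 in edgeR, as did 15.4% of genes.

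In A>C the FOS+ animals stood at 6.58 and 6.82 and the FOS- animals at 1.90 and 1.76, with no overlap. EdgeR gave a log2 fold change of 4.12 (SE 0.94, adjusted p = 0.541) and called 0% of 24405 genes, 2 members and 4.46% of genes passing at an unadjusted p under 0.05. DESeq2 called 2 members there (Kdm6b and Jmjd1c) and 4.41% of genes, and limma 1 on either scale (Kdm6b) and 0.326% and 0.144%. A>A FOS+ against A>C FOS+, on other plates, gave -0.61 (SE 0.66, edgeR adjusted p = 1). That comparison also called 0% of genes. No member passed an unadjusted p under 0.05 (4.94% of genes), and neither DESeq2 (4.6%) nor limma called one. As a level, Kdm6b was lower in every A>A FOS+ animal than in every A>C FOS+ animal (means 5.81 and 6.70). The same was so for 2.77% of 22994 genes. Kdm4a was higher without overlap (means 0.89 and 0.41), as were 3.17% of genes, and the other 8 members overlapped. Plate and context cannot be told apart there.

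**Figure D3:**
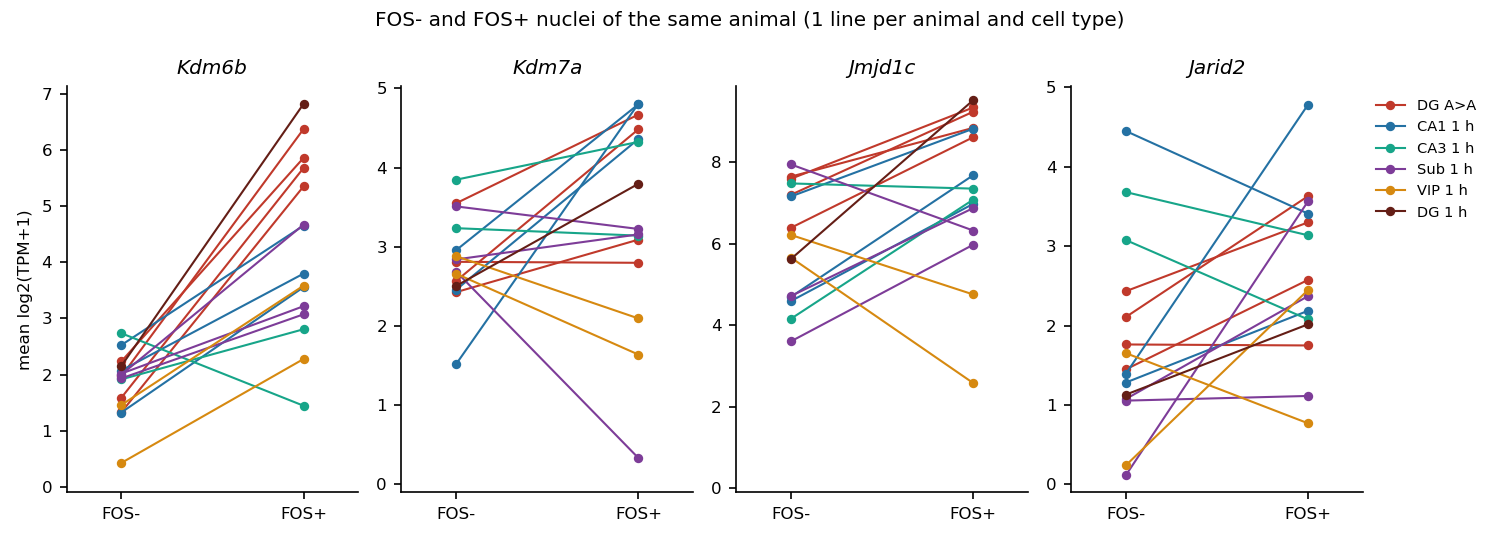
Mean log2(TPM+1) in the FOS- and FOS+ nuclei of the same animal, 1 line per animal and cell type. For Kdm6b the FOS+ end is higher in each DG, CA1, Sub and VIP animal and in 1 of 2 CA3 animals.

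Kdm7a removes methyl groups from H3K9 and H3K27 in their lower methylation states. In DG it was 3.79 in 1 h FOS+ and 2.51 in 1 h FOS- nuclei of mouse 3, against 2.68 and 1.59 in HC. In A>A it ran from 2.80 to 4.67 in FOS+ animals (median 4.08) and from 1.48 to 3.55 in FOS- animals (median 2.54), so the groups overlapped. The log2 fold change was 1.12 (SE 0.64, edgeR adjusted p = 0.437) in A>A and 1.67 (SE 1.28, adjusted p = 0.844) in 1 h FOS+ against HC. Within the 4 A>A animals the differences were 1.91, 1.12, 0.66 and -0.01. Mice 24 and 25, on 1 plate date, had the larger pair, and mice 26 and 27, on another, the smaller. At 4 h Kdm7a was 1.96 and 1.98, inside the HC range.

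Jmjd1c belongs to the KDM3 family, to which demethylation of H3K9 is ascribed, and was the most abundant member. Its DG level was 9.52 in 1 h FOS+ and 5.63 in 1 h FOS- nuclei of mouse 3 and 5.17 and 5.71 in HC. The FOS+ value again stood apart, and the FOS- value lay within the HC range. EdgeR put 1 h FOS+ above HC by 3.08 on the log2 scale (SE 0.65, adjusted p = 0.0482). This call held in 6 of 11 alternatives and was lost, for example, with DESeq2's size factors (2.87, edgeR adjusted p = 0.0913) and without HC mouse 7 (2.51, adjusted p = 0.516). At 4 h the level was 5.36 and 5.11, and at 5 h it ranged from 3.97 to 7.48.

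In A>A, Jmjd1c ran from 8.50 to 9.34 in FOS+ animals (median 8.73) and from 5.29 to 7.65 in FOS- animals (median 7.24), again without overlap. Kdm6b and Jmjd1c were thus the 2 of 10 members whose FOS+ animals all lay above the FOS- animals, where 0.887% of 22994 genes did so. The log2 fold change of Jmjd1c was 1.23 (SE 0.32, edgeR adjusted p = 0.21), not called by edgeR and called by DESeq2. In the 4 paired animals the differences were 2.04, 1.75, 1.20 and 2.22, positive in each. In A>C the FOS+ animals were at 9.33 and 8.99 and the FOS- animals at 6.49 and 6.43, a log2 fold change of 2.20 (SE 0.57, edgeR adjusted p = 0.732). In A>C, 4 of 10 members did not overlap with FOS+ higher (Kdm6b, Jmjd1c, Kdm7a and Kdm2b), and so did 11.7% of all genes. There 2 members did not overlap with FOS+ lower (Kdm3a and Kdm4c), and so did 25.0% of all genes.

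Kdm3a is the H3K9 demethylase of the same family. It had counts in 8.00% of HC, 15.4% of 1 h FOS+ and 11.1% of 1 h FOS- DG nuclei, and in 39.7% at 4 h and 30.5% at 5 h. After thinning these shares were 8.00%, 11.5%, 7.41%, 22.1% and 23.7%. Its level was 0.24 and 1.05 in HC, 1.17 and 1.35 at 4 h, and 1.25, 1.04, 2.01 and 0.73 in the 4 mice at 5 h. The 4 h animals lay above HC and the 5 h animals overlapped it. The log2 fold change against HC was 2.81 at 4 h (SE 1.40, edgeR adjusted p = 0.864) and 3.07 at 5 h (SE 1.34, adjusted p = 0.463), neither called.

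Jarid2, the PRC2 cofactor, was called by edgeR in 1 comparison, higher at 5 h than in HC. In DG it was 0.79 and 0.97 in HC animals, 2.02 in 1 h FOS+ and 1.13 in 1 h FOS- nuclei of mouse 3, 1.528 and 2.499 at 4 h, and 1.95, 3.45, 2.96 and 3.06 in mice 22, 23, 8 and 9 at 5 h. All 4 h and 5 h animals lay above both HC animals, which were on another plate date. EdgeR put the 5 h nuclei above HC by 3.25 on the log2 scale (SE 0.68, adjusted p = 0.0446), and Jarid2 was the only member among the 0.262% of genes called. At an unadjusted p under 0.05, 2 members and 10.3% of genes passed. DESeq2 called 1 member and 7.58% of genes, and limma on log2(mean TPM+1) 1 member and 0.957%. The Jarid2 call held in 6 of 15 alternatives. It was lost without 5 h mouse 22, 23 or 9 (adjusted p 0.0545, 0.0582 and 0.0562) and without HC mouse 7 (2.61, edgeR adjusted p = 0.436), and with the Arc-positive FOS- nuclei kept it was 1.93 (adjusted p = 0.411).

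At 4 h Jarid2 was 1.97 above HC on the log2 scale (SE 0.68, edgeR adjusted p = 0.595). The 4 h comparison called 0.246% of genes and no member, with 1 member at an unadjusted p under 0.05 (5.58% of genes) and none by DESeq2 (3.92%) or limma. At 4 h the animals of 5 of 10 members all lay above HC (Kdm6b, Jarid2, Kdm2b, Kdm3a and Kdm4a), against 16.3% of all genes, and at 5 h those of 2 (Jarid2 and Kdm4b), against 3.73%. The share of nuclei with a Jarid2 count was 32.0% in HC and lay between 51.9% and 66.2% in the other 8 DG groups. After thinning it was 16.0% in HC and between 25.9% and 50.0% in the others.

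With FOS, Jarid2 overlapped. In A>A it ran from 1.75 to 4.49 in FOS+ animals (median 3.31) and from 1.05 to 2.54 in FOS- animals (median 1.93), a log2 fold change of 1.02 (SE 0.38, edgeR adjusted p = 0.265). Paired differences were 0.87, -0.01, 1.52 and 1.13. In A>C the FOS+ animals were at 3.22 and 2.62 and the FOS- animals at 1.74 and 3.33, with a log2 fold change of -0.15 (SE 0.65, edgeR adjusted p = 1). Genes used as markers of other cells had counts in the same libraries. The summed TPM of 3 oligodendrocyte genes ran from 36.4 to 254 at 5 h (median 75.1) and from 0.2 to 412 in HC (median 97.2, here with HC animals of 1 nucleus too). That of 3 astrocyte genes ran from 3.13 to 56.6 at 5 h (median 36.1) and from 0 to 60.8 in HC (median 2.42). That of 3 GABAergic genes was 349 in 1 h FOS+ and 129 in 1 h FOS- nuclei, 156 to 257 against 87.1 to 99.4 in A>C FOS+ and FOS-, 76.1 to 285 against 55.7 to 220 in A>A, 8.99 to 239 at 5 h and 0.81 to 307 in HC. That of 3 microglia genes ran from 1.33 to 3.35 at 5 h and from 0.45 to 3.36 in HC. Of the 3 GABAergic genes, Gad1 had the highest mean log2(TPM+1) over DG animals, 3.37 against 0.60 for Gad2 and 0.0049 for Slc32a1. The cells that gave these RNAs and their part in the members' values were not tested.

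Kdm2a and Kdm2b remove methyl groups from H3K36 and bind unmethylated CpG islands, and Kdm2b brings a form of Polycomb complex PRC1 to them. Kdm2a was detected in 88.9% to 100% of nuclei of each DG group and called in no comparison. Its level was 3.82 and 2.70 in HC, 3.73 and 2.99 in 1 h FOS+ and FOS-, and 3.63 ± 0.69 against 3.13 ± 0.37 in A>A FOS+ and FOS- (n = 6 each). On summed counts Kdm2a was 1.33 higher in 1 h FOS+ than in HC on the log2 scale (SE 0.71, edgeR adjusted p = 0.844) and 1.70 higher than in 1 h FOS- (SE 0.87, adjusted p = 1), at 136 against 51.6 CPM (counts scaled to library size) in mouse 3. The A>A groups overlapped (log2 fold change 0.45, SE 0.35, edgeR adjusted p = 0.64). Kdm2b was sparse, with counts in 28.0% to 51.5% of nuclei. It was 1.65 and 2.04 in A>C FOS+ against 1.28 and 0.67 in A>C FOS- (log2 fold change 2.66, SE 1.63, edgeR adjusted p = 0.899), and 1.20 ± 0.66 against 1.11 ± 0.30 in A>A.

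The KDM4 enzymes act on trimethylated H3K9 and H3K36. Kdm4a had 2 counts in all in the 26 FOS+ nuclei of 1 h mouse 3 and 3399 counts in its 27 FOS- nuclei. The depth-corrected ratio (CPM) was 1530, with a counting interval of 423 to 12600 (95%). That interval treats each read as independent and covers no spread between nuclei or animals. The counts sat in 8 of the 27 nuclei, and the fitted log2 fold change of -10.19 (SE 4.24) was not called (edgeR adjusted p = 1). In the A>A animals Kdm4a was 0.89 ± 0.36 in FOS+ and 1.17 ± 0.58 in FOS- (log2 fold change -0.24, SE 1.16, edgeR adjusted p = 1), with counts in 23.8% and 36.4% of nuclei. The 6 FOS+ animals overlapped the 6 FOS- animals.

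Kdm4b was detected in 7.69% to 37.0% of nuclei of a DG group, the lowest share in 1 h FOS+. Kdm4c had a count in 76.0% of HC nuclei, pooled over animals, and in 30.8% to 63.0% of nuclei of the other DG groups. No comparison called it, and its log2 fold change against HC was -0.07 in 1 h FOS+, 0.15 in 1 h FOS-, -0.18 at 4 h and -0.57 at 5 h. Its level was 4.14 and 2.31 in HC, 2.90, 0.57, 1.87 and 2.94 at 5 h, and 1.42 ± 0.72 and 1.59 ± 0.46 in A>A FOS+ and FOS-. The log2 fold change in A>A was -0.08 (SE 0.81, edgeR adjusted p = 1) for Kdm4c and -0.33 (SE 1.25, adjusted p = 0.994) for Kdm4b.

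**Figure D4:**
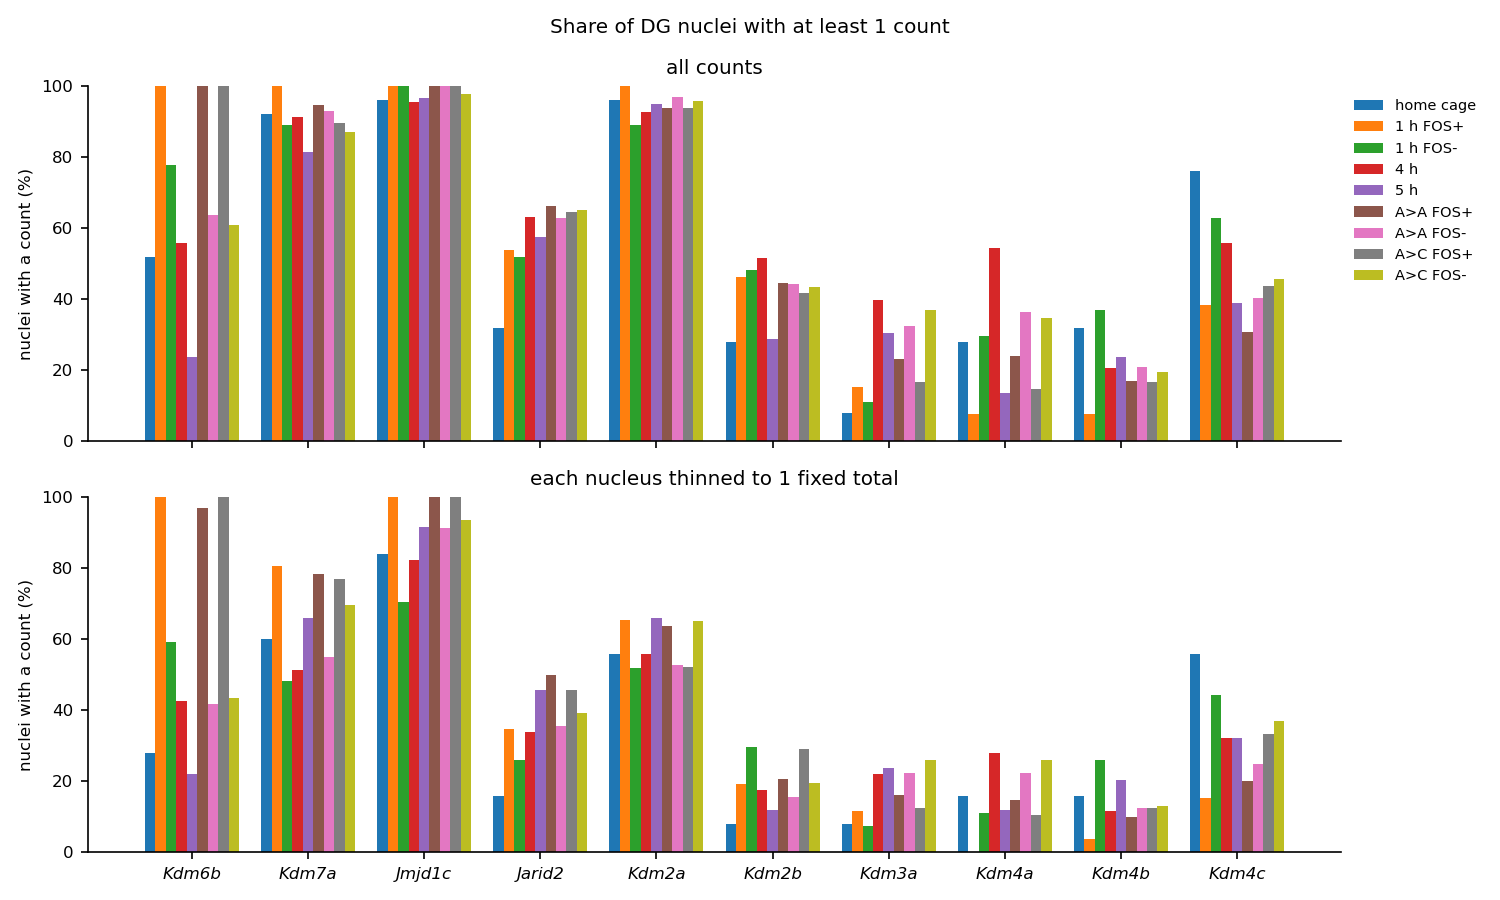
Percent of DG nuclei with at least 1 count of each gene in the 9 DG groups, from all counts (top) and after thinning each nucleus to 100000 counts (bottom). Kdm6b reaches 100% in the FOS+ groups at full depth and at least 96.9% after thinning.

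Across the 10 genes, 7 had a positive fitted fold in 1 h FOS+ against HC (median log2 fold change 1.39, against 0 over all 24405 genes, of which 41.7% were positive). Without HC mouse 6 this median was 3.27 and without HC mouse 7 it was 0.70. The paper places Kdm6b, Kdm7a and Jmjd1c in an early signature drawn from the same 1 h FOS+ nuclei. The members' median there, and the counts of 4 genes together given below, are thus no independent result. In A>A FOS+ against FOS-, 6 of 10 were positive (median 0.43, against -0.02 over all genes, of which 45.4% were positive). For Kdm6b, Kdm7a, Jmjd1c and Jarid2 together a log2(TPM+1) above 1 was asked for, not 1 count. All 4 reached it in 8 of 26 1 h FOS+ nuclei, 57 of 130 A>A FOS+ and 19 of 48 A>C FOS+ nuclei. The same was so in 1 of 25 HC, 4 of 27 1 h FOS-, 6 of 68 4 h, 1 of 59 5 h, 15 of 129 A>A FOS- and 8 of 46 A>C FOS- nuclei. The number of the 10 genes with at least 1 count in a nucleus had a median of 6 in both A>A groups.

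**Figure D5:**
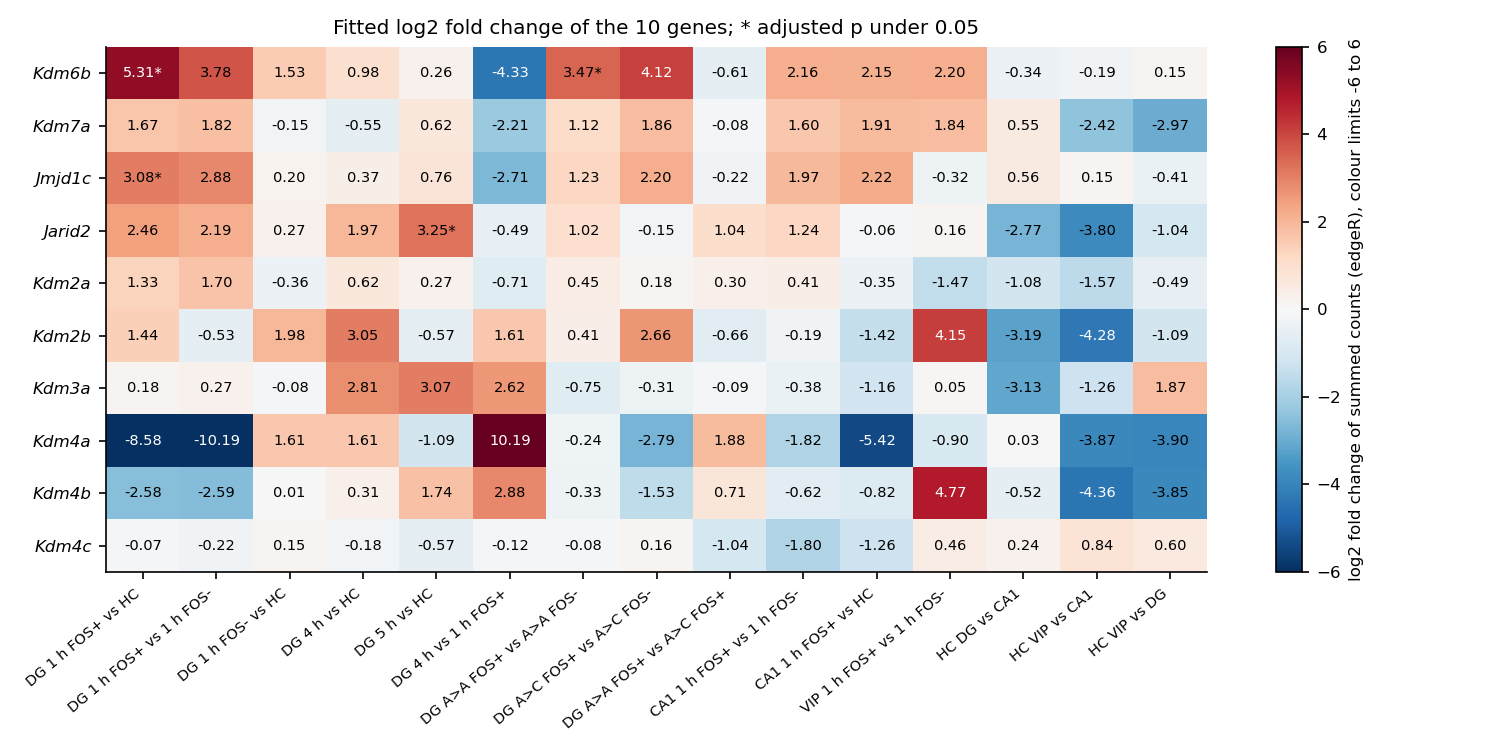
Fitted log2 fold change (edgeR, summed counts) of the 10 genes in 15 comparisons, as colour (limits -6 to 6) and number, with an asterisk where the adjusted p is under 0.05. The 4 asterisks are Kdm6b (5.31 and 3.47), Jmjd1c (3.08) and Jarid2 (3.25).

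In CA1 no member was called. The levels of Kdm6b, Kdm7a and Jmjd1c were higher in the FOS+ than in the FOS- nuclei of each of the 3 animals. That of Kdm4a was lower in each, and the share of all genes that did either was not computed. Kdm6b was 3.80, 4.65 and 3.56 in the FOS+ nuclei of mice 10, 2 and 4, against 2.07, 2.53 and 1.32 in their FOS- nuclei and 1.86, 2.62 and 1.05 in HC. The FOS+ animals lay above the others. Of the 10 members, 2 had every FOS+ animal above every FOS- animal (Kdm6b and Kdm7a), as had 5.35% of 13722 genes, and 3 had every FOS+ animal above HC (these and Jmjd1c), as had 5.32%. Lower without overlap were 1 against FOS- (Kdm4a), as were 5.2% of genes, and 1 against HC (Kdm2b), as were 4.2%. The log2 fold change of Kdm6b was 2.16 against FOS- (SE 0.96, edgeR adjusted p = 1) and 2.15 against HC (SE 0.96, adjusted p = 0.998). Kdm7a was 4.80, 4.36 and 4.80 in FOS+ against 1.52, 2.46 and 2.96 in FOS- nuclei, and Jmjd1c was 6.98, 7.68 and 8.82 against 4.60, 4.70 and 7.16. Neither was called. EdgeR called 0% of 14507 genes in CA1 FOS+ against FOS- and 0% against HC. At an unadjusted p under 0.05, 1 and 2 members passed, where 4.34% and 4.8% of all genes did. DESeq2 called 1.5% and 1.68% of genes, and neither DESeq2 nor limma called a member.

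In VIP interneurons Kdm6b was 3.58 and 2.28 in FOS+ and 2.42, 1.46 and 0.42 in FOS- animals, which overlapped. In the 2 animals with both kinds of nuclei it was 2.13 and 1.85 higher in FOS+. Jmjd1c went the other way as a level, 2.58 and 4.76 in FOS+ against 4.10, 5.66 and 6.22 in FOS- animals, while its summed counts gave a log2 fold change of -0.32 (SE 0.81, edgeR adjusted p = 1). EdgeR called 0% of 15002 genes in VIP, with 1 member (Kdm2b) at an unadjusted p under 0.05 (5.67% of genes) and none by DESeq2 (2.77%) or limma.

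Whether the FOS difference depends on the cell type was tested as an interaction. For Kdm6b the DG difference exceeded the CA1 difference by 1.65 on the log2 scale (SE 2.04, edgeR adjusted p = 1), so no difference between the cell types was shown. DG against CA1 called 0.00457% of 21903 genes and no member, and CA1 against VIP called 0%, with Jmjd1c at 2.18 (SE 1.16, edgeR adjusted p = 0.866). In neither did a member pass an unadjusted p under 0.05 (1.73% and 6.03% of genes), nor did DESeq2 (1.44% and 2.17%) or limma call one. In Sub, Kdm6b was 3.07, 4.67 and 3.22 in FOS+ against 1.93, 2.00 and 2.02 in FOS- nuclei of mice 10, 2 and 4. In CA3 it was 1.45 and 2.81 against 2.74 and 1.91 in mice 10 and 4. The CA3 animals overlapped.

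The genes whose DG profile was nearest to a member were found by Pearson's r of the mean log2(TPM+1) over 26 animal and group means, which share libraries and control animals. Nearest to Kdm6b were Slc2a1, the glucose transporter GLUT1 (r = 0.957), Dpysl5 (0.949 as r) and the ETS repressor Etv3 (0.947). Nearest to Jmjd1c were Osbpl6 (r = 0.91), the phosphodiesterase Pde4a (0.899) and Tet3, an enzyme that oxidises methylated DNA (0.863). For Kdm7a they were Ifrd1 (0.829), Rapgef6 (0.811) and Tex11 (0.797), and for Jarid2 Fam107a (0.811), Slc35a3 (0.759) and Rangap1 (0.757). Among members, Kdm6b had r = 0.829 with Jmjd1c, 0.731 with Kdm7a and 0.395 with Jarid2.

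Genes of related function were given as lists: 21 other JmjC genes, the 2 flavin-dependent demethylases of H3K4 (Kdm1a and Kdm1b), 10 genes of PRC2, 5 H3K9 methyltransferases and 6 H3K4 methyltransferases. EdgeR called none of them up or down in any of the 17 comparisons. The share of all genes called is given with each comparison above. Members and lists were chosen with earlier results of these data known, so their numbers of calls are not compared. In A>A FOS+ against FOS-, 8 of the 21 other JmjC genes tested had a positive log2 fold change (median -0.40), as had 3 of 9 PRC2 genes (median -0.59), 2 of 5 H3K9 methyltransferases (median -0.82) and 4 of 6 H3K4 methyltransferases (median 0.08), beside a median of -0.02 over all genes. At an unadjusted p under 0.05, 1 other JmjC gene was higher and 4 were lower there, where 15.4% of all genes passed, and 0 genes of the other lists passed. In 1 h FOS+ against HC, 9 of 21 other JmjC genes were positive (median -0.09), 6 of 9 PRC2 genes (median 0.32), 1 of 5 H3K9 methyltransferases (median -3.78) and 3 of 6 H3K4 methyltransferases (median -0.12), beside a median of 0 over all genes.

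The gene of these lists nearest to a call was Rbbp7, a histone-binding subunit of PRC2 and other complexes. Its log2 fold change was 3.12 in 1 h FOS+ against FOS- DG nuclei (SE 0.58, edgeR adjusted p = 0.0604) and 1.87 in 1 h FOS+ against HC (SE 0.44, adjusted p = 0.109). At 4 h against HC it was 1.81 (SE 0.39, edgeR adjusted p = 0.0583), and in A>A FOS+ against FOS- it was -0.27 (SE 0.22, adjusted p = 0.666). Ezh1, a catalytic subunit of PRC2, stood at -1.56 in A>A (SE 0.79, edgeR adjusted p = 0.356) and at -3.35 in 1 h FOS+ against HC (SE 1.97, adjusted p = 0.844), and was called in neither.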

How the data were processed

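Single nuclei of mouse hippocampus were sequenced by SmartSeq2. The authors deposited expected counts per gene from RSEM, all whole numbers (100%), and the deposited levels are log2(TPM+1), both per nucleus. The submitters' processing notes name RSEM, Bowtie and the build mm10. How the expected counts became whole is not given in the sources used here.

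Of 912 nuclei, 818 had at least 100000 aligned reads and 4000 genes with log2(TPM+1) above 1. A further 35 FOS- nuclei (HC or 1 h) were dropped because their Arc level exceeded 2.5, and 783 were used. Counts were summed per animal (29 in all, by exposure and mouse number) and group, with at least 2 nuclei per sum. Both 1 h DG groups hold 1 animal, whose spread is assumed to be that of the other DG groups. Labels give 4 animals more than 1 age, so whether each of these is 1 mouse cannot be told.

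Sums were tested with edgeR 4.0.16 (quasi-likelihood, TMM, filter on low counts, R 4.3.3), adjusted over all genes tested by Benjamini-Hochberg, with a threshold of 0.05. The test was checked on simulated counts, drawn with less spread than the real sums, so its recovery there does not give the power here. Alternatives were DESeq2 1.42.0, limma 3.58.1 on mean log2(TPM+1) and on log2(mean TPM+1) with a pseudocount of 1, DESeq2 size factors, no low-count filter, at least 5 nuclei per sum, nuclei thinned to 100000 counts, animals split by plate date (33), Arc-positive nuclei kept, no quality thresholds, animals sharing a plate date, the animal as replicate block, and each animal left out. Sums of 1 animal are paired by its label. Their deviations from the group means correlated at 0.0150 to 0.0926 in A>A, 0.0389 to 0.0680 in CA1 and 0.00405 to 0.0259 in VIP. Levels, shares and figures were made in Python 3.11.15 (pandas 2.3.3, numpy 2.4.6, matplotlib 3.10.9, scipy 1.17.1).

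The 10 genes were taken by name, and the members and the gene lists were chosen with earlier results of these data known. Named beside them are Fos and Arc, the 3 genes nearest by correlation to each of Kdm6b, Kdm7a, Jmjd1c and Jarid2, and at most 3 genes per list. Expected counts total from 142275 to 5885216 per used nucleus, which limits precision for genes with few counts.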

Additional observations from a re-analysis of the deposited data

Results flagged for a closer look

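Kdm4a was far from the others in 1 A>A FOS+ animal, mouse 25, at a mean log2(TPM+1) of 1.59 where the nearest of the 6 animals was at 0.98 (0.632 of the whole range). This was the only such value in 30 groups of 4 to 10 animals looked at. Chance gives such a value in about 1 in 20 groups, so 1 in 30 is no more than chance gives.

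For 4 genes the FOS+ minus FOS- difference within 1 h animals went one way in every animal of one cell type and the opposite way in every animal of another, among 60 pairs of cell types compared. Each cell type had only 2 or 3 animals, so random signs also give such pairs, and how many was not computed. Differences here are in mean log2(TPM+1). Jmjd1c was at 2.34 in CA1 (3 animals) and at -2.27 in VIP (2 animals), 4.61 apart. On summed counts the interaction of Jmjd1c was tested in edgeR and not called (adjusted p = 0.866). Kdm7a was at 2.34 in CA1 and -0.90 in VIP, 3.25 apart, while on summed counts its edgeR interaction was -0.29 (adjusted p = 1). Kdm2b was at -2.33 in CA3 and 0.61 in VIP, -2.95 apart, and Jarid2 at -0.77 in CA3 and 1.60 in Sub, -2.37 apart. These last 2 differences were not tested.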

How the results depend on the processing

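The number of members called stayed the same in 194 of 226 alternatives over the 17 comparisons, with 3 against 2 taken as the same. These include the comparisons in which 0 members were called, where the number could only stay or rise. The fold changes of Kdm6b, Kdm7a, Jmjd1c and Jarid2 kept direction and call in 473 of 532, which counts uncalled folds that stayed uncalled. In DG 1 h FOS+ against HC, 2 members were called, 3 by DESeq2 (Kdm4a lower), 1 with DESeq2 size factors in edgeR, 1 without the low-count filter, 1 with animals split by plate date, 1 with Arc-positive FOS- nuclei kept, and from 0 to 1 leaving out an HC animal. In 5 h against HC, 1 was called, 0 without the low-count filter, 0 by limma on mean log2(TPM+1), 0 with animals split by plate date, 0 with Arc-positive nuclei kept, 0 without the quality thresholds, and from 0 to 1 leaving out an animal. In A>A FOS+ against FOS-, 1 was called, 2 by DESeq2, 2 by limma on log2(mean TPM+1), 0 in the animals whose FOS+ and FOS- nuclei share 1 plate date, and from 0 to 1 leaving out an animal. With the animal as replicate block 0 members were called there (Kdm6b 3.55, edgeR adjusted p = 0.175, over 22302 genes tested), and the block changed no other member's call. Where 0 members were called, DESeq2 called 3 in 1 h FOS+ against FOS-, 3 in 4 h against 1 h FOS+, 2 in A>C and 1 in HC VIP against CA1. There limma on mean log2(TPM+1) called 1 in 1 h FOS+ against FOS-, 1 in 4 h against 1 h FOS+ and 1 in A>C, and on log2(mean TPM+1) 2 in 4 h against 1 h FOS+ and 1 in A>C. The cause was not tested.

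No called fold change turned direction, and these uncalled ones did. Kdm6b at 5 h against HC became -0.22 by limma on mean log2(TPM+1) and -0.40 without the quality thresholds, and leaving out 1 animal gave -0.96 (5 h mouse 22) to 1.21 (HC mouse 6). Kdm7a in 1 h FOS- against HC became 0.37 and 0.38 by limma on the 2 scales, and ran from -1.02 (without HC mouse 7) to 2.42 (without HC mouse 6). Kdm7a at 4 h against HC became 0.12 by limma on log2(mean TPM+1) and ran from -1.42 to 2.02 without the same animals, at 5 h it ran from -0.26 to 3.19, and in A>A FOS+ against A>C FOS+ from -0.41 (without mouse 14) to 0.35 (without mouse 13). Jmjd1c in 1 h FOS- against HC ran from -0.37 to 1.17 without HC mouse 7 or 6, and at 4 h against HC it became -0.21 by limma on mean log2(TPM+1) and about 0 on the other scale (-0.0025), and ran from -0.20 to 1.34. Jarid2 in 1 h FOS- against HC became -1.05 with Arc-positive nuclei kept and ran from -0.38 to 1.48 without HC mouse 7 or 6. In A>C it became 0.39 by limma on either scale and ran from -0.63 (without mouse 11) to 0.56 (without mouse 12).

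Over all genes the counts moved far more with the test: DESeq2 called 1652 genes in 1 h FOS+ against HC where edgeR called 66, 839 in A>A where edgeR called 10, and 1849 in 5 h against HC where edgeR called 64. Leaving out 1 animal gave 21 to 168, 1 to 8 and 20 to 204 genes in these comparisons. In the other DG comparisons DESeq2 and edgeR called 955 and 11 (1 h FOS+ against FOS-), 583 and 1 (1 h FOS- against HC), 956 and 60 (4 h against HC), 1161 and 4 (4 h against 1 h FOS+), 1076 and 0 (A>C), 1123 and 0 (A>A FOS+ against A>C FOS+) genes. In the 8 comparisons outside or across DG they called 217 to 762 and 0 to 5. With the animal as replicate block edgeR called 0 genes in 1 h FOS+ against FOS- and 0 in A>A. The common dispersion of the DG sums was 1.949, the 1 h DG groups have 1 animal each and HC DG has 2, and this sets the precision of all folds against them.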
